A study of Homo sapiens with 4 samples.

Results

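GDF15, the transcription factor ATF4 with genes known as its targets, and the cytosolic aminoacyl-tRNA synthetases were followed in RNA-Seq data of HT-29 cells, 42 genes of 19729 in all. GDF15 was chosen because its own value rose more than 4-fold after APC silencing in these same libraries. The other 41 genes were chosen by their known role, with earlier results of these data known. The question behind the choice was whether the rise of GDF15 came with an integrated stress response. HT-29 is a colorectal cancer (CRC) cell line that is MSS (microsatellite stable), BRAF-V600E and APC-mutant, so both groups carry truncated APC alleles. The cells were stably transduced with lentiviruses for a doxycycline (DOX)-inducible shRNA and used at passage 3 to 5 after transduction. The APC shRNA group expressed an shRNA against APC and the NonS group a non-silencing shRNA, and both received 500 ng/ml DOX for 72 h. Each group held 2 biological duplicates, named I and II. The labels do not say whether the lines were clones, and p-values measure the spread between these 4 libraries. An effect of the hairpin or of the line that carries it cannot be told apart here from that of APC silencing. Cells without DOX were not analysed here, and in bulk RNA fewer cells with a transcript cannot be told apart from less transcript per cell.

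The integrated stress response is a shared answer to amino acid shortage, misfolded protein in the endoplasmic reticulum, haem shortage or double-stranded RNA. A set of kinases, each reading a different stress, phosphorylates the translation factor eIF2. General translation then falls, while the mRNA of ATF4 is translated more. ATF4 binds C/EBP-ATF response elements (CARE) together with C/EBP partners and switches on amino acid transport, serine, proline, asparagine and one-carbon synthesis, and many tRNA synthetases. GDF15 is a secreted hormone of the TGF-beta superfamily that acts through GFRAL, a receptor of the brainstem, and its gene is known to respond to ATF4, DDIT3 and p53. Since ATF4 is controlled largely at translation, its mRNA level need not follow its protein, which RNA-Seq does not measure.

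Stretches of promoter DNA are shown to let the genes of the response be read beside the element through which ATF4 acts. Windows from 250 bases before to 50 bases after the transcription start (RefSeq, GRCh38.p14) were found for 34 of the 42 genes. LARS, YARS, DARS, VARS, SHMT2, PYCR1, PSPH and NUPR1 were not matched. The letters TGATGNAA (CARE) were searched on both strands. Each line below runs 5′ to 3′ along the gene's strand with the match in capitals. A match on the opposite strand appears as its reverse complement.
ATF3: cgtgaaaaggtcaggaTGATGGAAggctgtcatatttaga
CEBPG: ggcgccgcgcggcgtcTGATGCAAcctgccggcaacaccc
CHAC1: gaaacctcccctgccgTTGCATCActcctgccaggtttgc
ASNS: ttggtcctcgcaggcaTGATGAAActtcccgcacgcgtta
AARS: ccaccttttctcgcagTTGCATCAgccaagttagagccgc
GARS: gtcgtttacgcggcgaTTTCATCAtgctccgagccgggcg
IARS: ccgcattttcagcgcgTTGCATCAcctcc

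These stretches lie at chr1:212565200-212565239 (+) for ATF3, chr19:33374055-33374094 (+) for CEBPG, chr15:40953246-40953285 (+) for CHAC1, chr7:97872453-97872492 (-) for ASNS, chr16:70289670-70289709 (-) for AARS, chr7:30594829-30594868 (+) for GARS and chr9:92293698-92293726 (-) for IARS. The match began 68 bases before the RefSeq start of ASNS, 187 before that of AARS and 42 before that of CEBPG. CARS, MARS, NARS and TARS held a match that touched or followed the RefSeq start and is not printed. A gene with several RefSeq starts has several windows, and each distance is from the start whose window held the match. RefSeq starts need not coincide with the GENCODE v29 gene starts. The stretches of CEBPG, CHAC1, ASNS, GARS and IARS lie inside the GENCODE v29 spans of their genes. In all, 11 of the 34 genes with a window (32.4%) held a CARE match, against 4.46% of 27305 genes with a RefSeq window. The genes were picked with knowledge of ATF4 targets, so this share describes them and tests nothing.

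The palindrome TGACGTCA (ATF/CRE) was found in the window of 1 of the 34 genes, PPP1R15A, and of 2.25% of all genes. It is shown because PPP1R15A had the highest difference of the 34 genes tested beside GDF15. No window of the 34 genes held matches to more than 1 of the motifs searched. The stretch lies at chr19:48872347-48872386 (+).
PPP1R15A: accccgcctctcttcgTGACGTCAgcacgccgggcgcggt

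For GDF15 the 100 bases before its RefSeq start, chr19:18386058-18386157 (+), are shown because it is the gene the account turns on. This start lies inside the longer GENCODE v29 span given below for GDF15. Its window held neither of these motifs and no CTTTGAT, the core letters bound by TCF/LEF factors, which were found in 0 of the 34 genes and in 3.18% of all genes. These letters being absent from the window says nothing of the factors themselves.
GDF15: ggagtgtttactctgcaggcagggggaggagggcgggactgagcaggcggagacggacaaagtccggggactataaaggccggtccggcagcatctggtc

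The deposited values are whole numbers per gene and library that behaved as scaled values and not as read counts, and are called values here. They sum to between 398338 and 413595 per library, depth in reads is unknown, and rounding limits the precision of low values. APC itself was at 3 in NonS I and at 0 in the other libraries, too low in these tables to check the labels. The Wnt feedback genes AXIN2, NKD1, NOTUM and SP5 separated the groups, as shown by AXIN2, an inhibitor of the pathway, at 16 and 22 with NonS shRNA and 124 and 178 after APC silencing. Of 11 colorectal epithelial markers, 9 to 10 were above 0 per library and their summed values ranged from 4359 to 5412. LGALS4, a galectin of differentiated enterocytes in that list, fell from 557 and 646 to 175 and 147, and its part in the results was not tested. All 6 fibroblast and 4 endothelial markers were at 0 in every library, as were PTPRC and CD3E among 4 leukocyte markers, whose sum was 4 to 10.

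GDF15 stood at 22 with the NonS shRNA in both replicates and at 92 and 88 with the APC shRNA. The groups lay far apart in relation to the spread within them, and their means had a ratio of 4.09. All differences below are APC shRNA minus NonS in log2(value + 1). GDF15 differed by 1.98, the 33rd highest among the 5376 genes tested, those whose values averaged 10 or more. No test is given, since this rise chose the gene. Genes just inside the 4-fold limit were SEMA3F with the same ratio of 4.09 and PAM with 4.27, while LOXL4 and GABARAPL1 stood at 4. GDF15 (ENSG00000130513) lies at chr19:18374731-18389176 (+, GRCh38, GENCODE v29) and shares no exon bases with another gene.

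Most of the 41 other genes lay the other way or differed little. Of the 34 with a mean of at least 10, 29 had a negative difference, 4 a positive one and 1 a difference of 0. Their median difference was -0.37, against 0.03 over all genes tested, of which 46.6% were negative. With limma and Benjamini-Hochberg adjustment over all 5376 genes, 0 of the 34 were called higher at an adjusted p under 0.05 and 2 were called lower, SHMT2 and ALDH18A1. Over all genes 4.33% were called higher and 3.70% lower, so the 5.88% called lower here is 2 genes and lies near the background. At an unadjusted p under 0.05, 2 of the 34 were higher and 11 lower, where 19.8% of all genes tested were higher and 15.8% lower. These shares are the background for every count at an unadjusted p given below. Both APC shRNA libraries lay below both NonS libraries for 20 of the 34 genes (58.8%) and above them for 2 (5.88%), where 27.5% of all genes lay below and 33.0% above. The shares called and not overlapping are likewise the background for every such count in this fit given below. The 34 passed the filter on their mean over all libraries, and the 7 that did not are given by name with their groups.

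**Figure D1:**
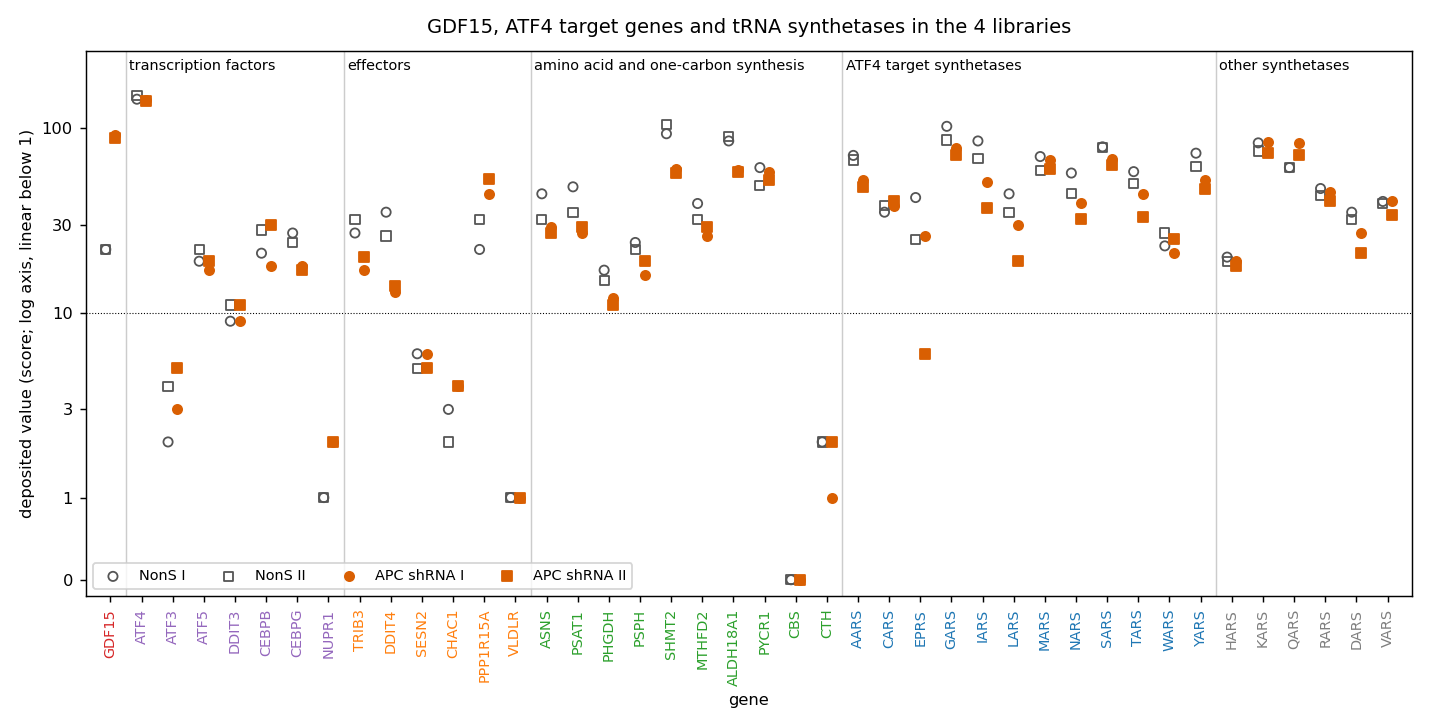
Deposited value (log axis, linear below 1) of each of the 42 genes in each of the 4 libraries, by role. Open grey symbols are NonS and filled orange symbols APC shRNA libraries, circles are replicate I and squares replicate II, and the dotted line marks the mean of 10 needed for testing. GDF15 stands at 22 in grey and at 88 and 92 in orange, while most synthesis genes and ATF4 target synthetases have their orange symbols lower.

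Among the transcription factors, ATF4 (chr22:39519695-39522685, +), the central activator of the response, was at 143 and 150 with NonS shRNA and 141 and 140 after APC silencing. The groups did not overlap, but the difference of -0.06 had a 95% interval of -0.24 to 0.12 and an adjusted p of 0.506. DDIT3 (CHOP), the factor linked to prolonged endoplasmic reticulum stress, was at 9 and 11 in both groups, with an interval of -0.49 to 0.49. Its locus shares exon bases with MARS and MBD6 on the opposite strand, and 105 with AC022506.1 on the same strand. How the counting treated strand is not given in the sources used here.

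ATF5, a relative of ATF4 with the same mode of translational control, was at 19 and 22 with NonS shRNA and 17 and 19 after APC silencing, and the groups overlapped. CEBPB, a C/EBP partner of ATF4, also overlapped, at 21 and 28 against 18 and 30. CEBPG, another such partner, was at 27 and 24 with NonS shRNA and 18 and 17 after APC silencing, without overlap. Its difference was -0.52 (SE 0.09) with an adjusted p of 0.0629, and so it was not called. ATF3, a factor induced downstream of ATF4, was at 2 and 4 against 3 and 5, and NUPR1, a small stress-induced chromatin protein, at 1 in both NonS and 2 in both APC shRNA libraries. Both were under the filter, and at such values 1 unit of rounding is as large as the difference. Of the 5 transcription factors tested 0 were called in either direction, and 1 had an unadjusted p under 0.05.

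The feedback and stress effectors differed in sign, and none of those tested was called. PPP1R15A (GADD34; chr19:48872392-48876057, +), which brings a phosphatase to eIF2 and restores translation, was at 22 and 32 with NonS shRNA and 44 and 53 after APC silencing. The groups did not overlap and the ratio of means was 1.80, the highest of the 34 genes tested, but with a difference of 0.84 (SE 0.24) the adjusted p was 0.117. DDIT4 (REDD1; chr10:72273920-72276036, +), an inhibitor of mTORC1 signalling, was at 35 and 26 with NonS shRNA and 13 and 14 after APC silencing. Both APC shRNA libraries were well below both controls, with a difference of -1.11 (SE 0.18) and an adjusted p of 0.0610. DDIT4 shares 847 exon bases with DDIT4-AS1 on the opposite strand.

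TRIB3 (chr20:362835-397559, +), a pseudokinase induced by ATF4 and DDIT3 that damps ATF4 activity, was at 27 and 32 with NonS shRNA and 17 and 20 after APC silencing. The groups did not overlap, and the difference of -0.64 (SE 0.14) had an adjusted p of 0.0825. At an unadjusted p under 0.05 PPP1R15A was higher and DDIT4 and TRIB3 were lower. The remaining effectors were under the filter. SESN2, a sensor of leucine that restrains mTORC1, was at 6 and 5 in both groups. CHAC1, which degrades glutathione and has the CARE match shown above, was at 3 and 2 with NonS shRNA and 4 in both replicates after APC silencing. VLDLR, a lipoprotein receptor induced by ATF4, was at 1 in every library.

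Genes of amino acid and one-carbon synthesis were mostly lower after APC silencing. Of the 8 tested, 7 had both APC shRNA libraries below both NonS libraries, against 27.5% of all genes tested. Of the 8, 2 were called lower (3.70% of all genes tested), and their median difference was -0.43 over the 8. Their summed value with the 2 genes under the filter was 413 and 381 with NonS shRNA and 288 and 284 after APC silencing. SHMT2 (ENSG00000182199, chr12:57229327-57234935, +), the mitochondrial enzyme that passes a carbon unit from serine to folate, was at 93 and 104 with NonS shRNA and 60 and 57 after APC silencing. It fell to 0.594 of the NonS mean, with a difference of -0.74 (SE 0.09) and an adjusted p of 0.0465. SHMT2 shares 460 exon bases with NDUFA4L2 and AC137834.2 on the opposite strand. ALDH18A1 (ENSG00000059573, chr10:95605929-95656706, -), which makes the precursor of proline from glutamate, was at 85 and 90 against 59 and 58. It fell to 0.669 of the NonS mean, with a difference of -0.57 (SE 0.06) and an adjusted p of 0.0452. Both adjusted p-values lie close to the limit of 0.05, and no gene in the whole fit had one below 0.0423. With any 1 of the 4 libraries left out, limma called 0 of all genes (1119 to 1330 had an unadjusted p under 0.05), and the difference then ranged from -0.82 to -0.66 for SHMT2 and from -0.61 to -0.53 for ALDH18A1. SHMT2 was also no longer called with a minimum mean of 8, which tests more genes.

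The serine pathway gave a like picture without a call. PHGDH, its entry enzyme, was at 17 and 15 with NonS shRNA and 12 and 11 after APC silencing. PSAT1, the next enzyme, was at 48 and 35 against 27 and 29, and PSPH, the last, at 24 and 22 against 16 and 19. None of these groups overlapped, and the adjusted p-values were 0.0840, 0.160 and 0.130. MTHFD2, the mitochondrial folate enzyme after SHMT2, was at 39 and 32 against 26 and 29 (difference -0.35, adjusted p 0.184). MTHFD2 shares 1619 exon bases with AC006030.1 and SLC4A5 on the opposite strand.

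ASNS (chr7:97852118-97872542, -), the asparagine synthetase whose promoter is a well studied example of the CARE, was at 44 and 32 with NonS shRNA and 29 and 27 after APC silencing. The groups did not overlap, with a difference of -0.41 (SE 0.19) and an adjusted p of 0.226. ASNS shares 1985 exon bases with AC079781.5 on the same strand. PYCR1, the last enzyme of proline synthesis, overlapped, at 61 and 49 against 58 and 52. PYCR1 shares 408 exon bases with MYADML2 on the same strand. Under the filter, CTH, the last enzyme of cysteine synthesis, was at 2 and 2 against 1 and 2, and CBS, the enzyme before it, was listed at 0 in every library. CBSL, a near-identical copy of CBS, was also at 0, so the level of CBS is uncertain.

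The 12 synthetases listed as ATF4 targets charge tRNAs with their amino acids in the cytosol. Of these, 11 had a negative difference, with a median of -0.45 over the 12. In 8 of the 12 both APC shRNA libraries lay below both NonS libraries, against 27.5% of all genes tested. Limma called 0 of the 12, and 4 were lower at an unadjusted p under 0.05 (15.8% of all genes). Their summed value was 739 and 639 with NonS shRNA and 566 and 481 after APC silencing, so the groups lay apart but replicate II lay below replicate I in each. AARS, for alanine, was at 71 and 67 against 52 and 48, with a difference of -0.46 (SE 0.07) and an adjusted p of 0.0623. IARS, for isoleucine, was at 85 and 68 against 51 and 37, with a difference of -0.79 (SE 0.23) and an adjusted p of 0.118. Both promoters hold the CARE match shown above. YARS, for tyrosine, was at 73 and 62 against 52 and 47, and SARS, for serine, at 79 and 78 against 68 and 63. Their adjusted p-values were 0.112 and 0.104.

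GARS, for glycine, was at 102 and 86 against 78 and 71, a difference of -0.33. NARS, for asparagine, was at 57 and 44 against 39 and 32, and TARS, for threonine, at 58 and 50 against 44 and 33, both with a difference of -0.49. LARS, for leucine, was at 44 and 35 against 30 and 19, a difference of -0.69 with a 95% interval of -1.58 to 0.20. In all 4 genes the groups did not overlap and the adjusted p was at least 0.175. EPRS, for glutamate and proline, had the largest difference of the 12, -1.28, and the largest error (SE 0.83), as it was at 42 and 25 with NonS shRNA and 26 and 6 after APC silencing. The groups of EPRS overlapped.

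The last 3 of the 12 differed little. CARS, for cysteine, was at 35 and 38 against 38 and 40, the only positive difference of the 12, at 0.09. MARS, for methionine, was at 70 and 59 against 67 and 60, with an interval of -0.41 to 0.37. WARS, for tryptophan, was at 23 and 27 against 21 and 25, with an interval of -0.55 to 0.31. CARS and MARS hold a CARE match at their RefSeq start and had overlapping groups. NARS and TARS hold a match after theirs and had groups that did not overlap. None of these genes was called, and a link with the position of the match was not tested. CARS and TARS each have 2 windows, so the position holds for the start of the window with the match. Of the 9 tested genes with a CARE match, most of them synthetases, 8 had a negative difference, with a median of -0.46. Of the 18 with a window and no match to TGATGNAA, 15 did, with a median of -0.15. Absence of these letters from a window does not mean that a gene lacks the element elsewhere. The 7 tested genes with no window had a median of -0.44, so the windows at hand leave a large share unread.

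**Figure D2:**
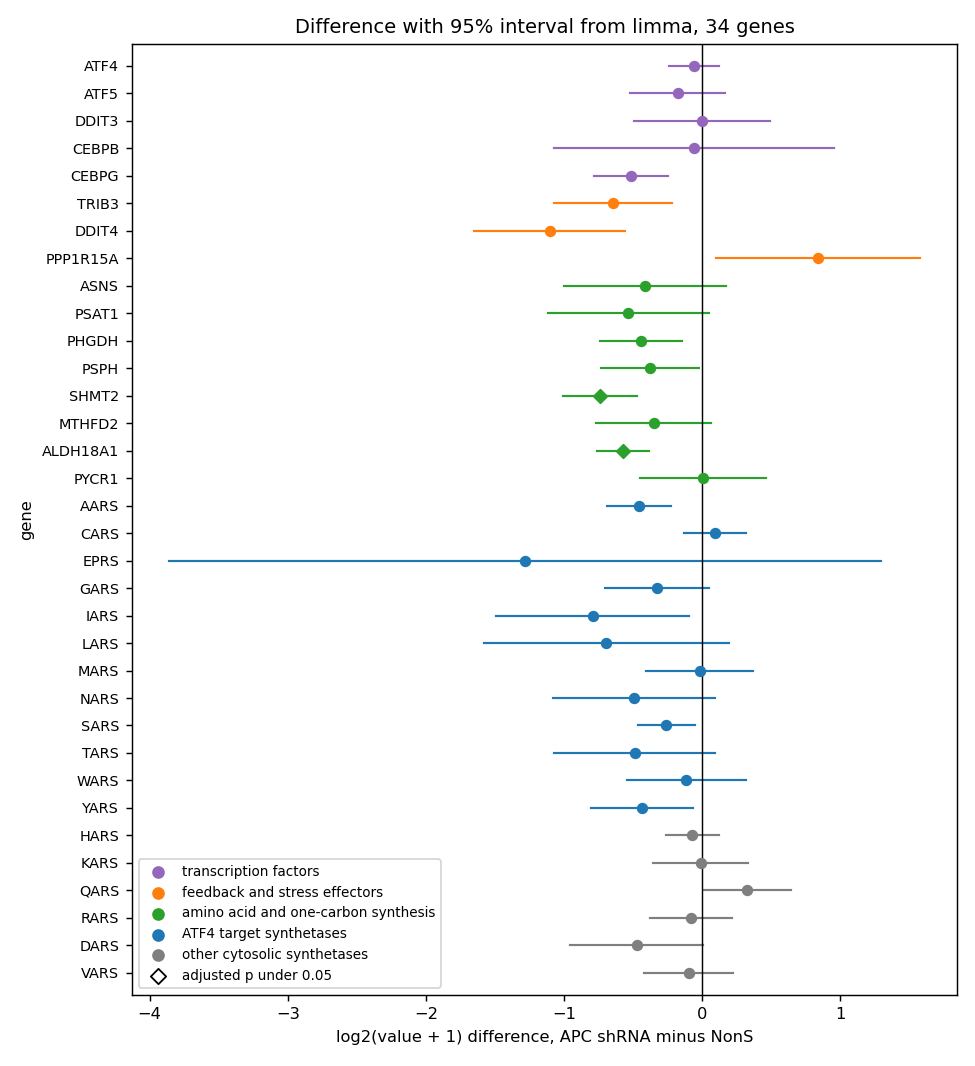
Difference of log2(value + 1), APC shRNA minus NonS, with its 95% interval from limma for the 34 genes tested other than GDF15, coloured by role. Diamonds mark the genes with an adjusted p under 0.05, SHMT2 at -0.74 and ALDH18A1 at -0.57, and PPP1R15A at 0.84 is the highest.

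The 6 other cytosolic synthetases, not listed as ATF4 targets, had a median difference of -0.08. Limma called 0 of them, and 1 had an unadjusted p under 0.05. Their summed value was 286 and 269 with NonS shRNA and 298 and 257 after APC silencing, so the groups overlapped. QARS, for glutamine, was at 61 and 61 against 83 and 71, the only synthetase of the 18 with both APC shRNA libraries above both NonS libraries (difference 0.33, SE 0.10, adjusted p 0.133). DARS, for aspartate, was the only one of the 6 with both below, at 35 and 32 against 27 and 21. HARS, KARS, RARS and VARS, for histidine, lysine, arginine and valine, differed by -0.07, -0.01, -0.08 and -0.10, each with overlapping groups. The difference between the 12 and the 6 was not tested. Split by physical assembly in place of regulation, the 8 members of the multi-synthetase complex (EPRS, IARS, LARS, MARS, KARS, QARS, RARS and DARS) had a median of -0.28 and the 10 others -0.29.

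A difference between the replicates ran through the synthetases beside that between the groups. In 15 of the 18 (83.3%), replicate II was below replicate I in both conditions, against 24.0% of all genes tested. In the synthesis genes this held for 3 of 8 and in the effectors for 0 of 3. LARS, for example, was 44 in replicate I and 35 in replicate II with NonS shRNA, and 30 and 19 after APC silencing. The GC content of the transcripts moved with both contrasts across the 5364 genes tested that have one. The rank correlation across genes, which share libraries and are not replicates, was 0.24 with the difference between the groups and 0.299 with that between replicates II and I. The 10% of genes lowest in GC had a median difference of -0.24 and the 10% highest one of 0.10. The 8 members of the multi-synthetase complex had a median GC content of 43.4%, in the low part of that range, and GDF15 had 62.9%.

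With the GC trend removed from each library, 29 of the 34 genes had a negative difference, 27 of them also before the correction, with a median of -0.33. The median was -0.38 for the 12 ATF4 target synthetases, -0.40 for the synthesis genes and -0.02 for the other synthetases. GDF15 then differed by 1.87. CEBPG, TRIB3, DDIT4 and AARS were called lower beside SHMT2 and ALDH18A1, 6 of 34 (17.6%), with adjusted p-values from 0.0162 to 0.0448, where 9.06% of all genes in that fit were called lower.

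**Figure D3:**
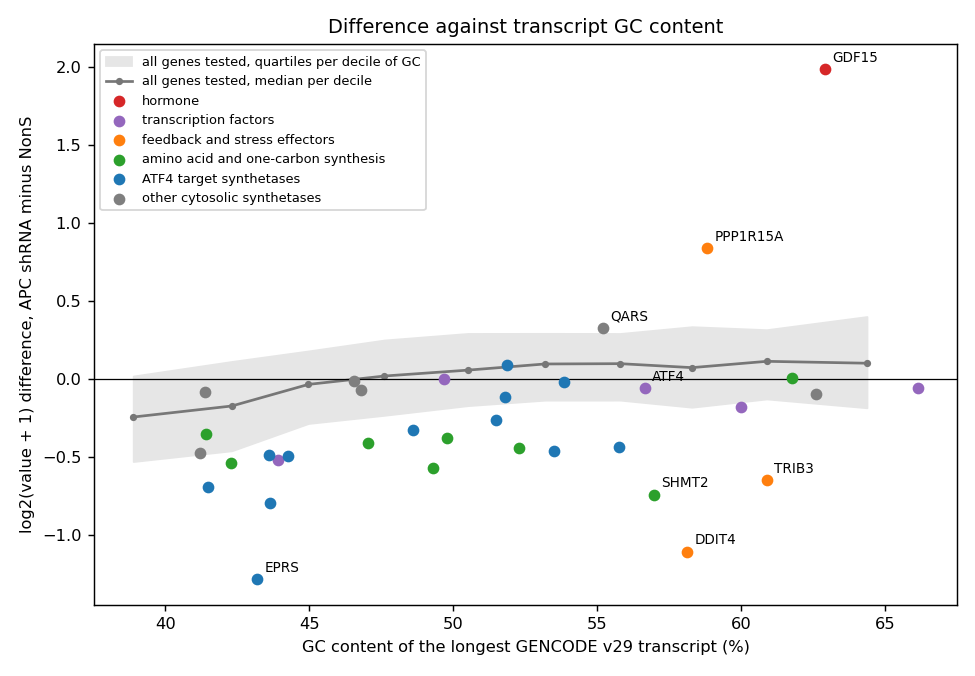
Difference of log2(value + 1), APC shRNA minus NonS, against GC content of the longest transcript for GDF15 and the 34 other genes tested, coloured by role. The grey line gives the median and the band the quartiles of all genes tested. They were taken in 10 bins of GC content that hold near-equal numbers of genes. The median runs from -0.24 in the lowest bin to 0.10 in the highest. SHMT2, TRIB3 and DDIT4 lie below the band at a GC content where the median is above 0.

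Genes around the response were read from further lists. Of 14 genes for the eIF2 kinases, eIF2, its exchange factor eIF2B and its regulators, 9 were tested and 0 called, with 0 at an unadjusted p under 0.05 and a median of -0.17. The largest difference was that of EIF2S2, the beta subunit of eIF2, at 131 and 94 against 72 and 49 (-0.89, adjusted p 0.145). EIF2S1, the subunit that is phosphorylated, was at 15 and 10 against 10 and 8, and EIF2AK2, the kinase for double-stranded RNA, at 11 and 13 against 8 and 11. Of the 4 kinases, EIF2AK1 (HRI), which reads haem, was at 69 and 72 against 76 and 86, higher without overlap (difference 0.20, adjusted p 0.226). EIF2AK3 (PERK) and EIF2AK4 (GCN2) were under the filter, at 5 and 4 against 3 and 2 and at 5 and 6 against 7 and 8. Kinase activity is not measured by these values.

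Among 9 amino acid transporters induced by ATF4, 6 were tested, with a median of -0.09. Of the 6, 0 were called higher and 1 lower (4.33% and 3.70% of all genes tested). SLC7A1, the carrier of arginine and lysine, fell from 33 and 33 to 21 and 20 (difference -0.66, SE 0.05, adjusted p 0.0423). SLC1A5, the glutamine carrier, was at 289 and 311 against 346 and 421, higher without overlap (difference 0.35, adjusted p 0.180). SLC7A11, the cystine carrier often used as a marker of ATF4 activity, was under the filter at 7 and 2 against 2 and 1. Among 11 further amino acid and one-carbon enzymes, 9 were tested, 0 rose and 1 fell, with a median of -0.25. GOT1, the cytosolic aspartate transaminase, fell from 33 and 36 to 22 and 22 (difference -0.62, SE 0.07, adjusted p 0.0463). At an unadjusted p under 0.05, 5 of these 9 enzymes were lower and 0 higher, against 15.8% and 19.8% of all genes.

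The remaining cytosolic synthetase and complex genes, 5 in number, were all tested and 0 called, with 2 lower at an unadjusted p under 0.05 (15.8% of all genes). Their median was -0.46, and -0.20 with the GC trend removed. FARSB, a subunit of the phenylalanine enzyme, was at 25 and 18 against 13 and 10. AIMP1, a scaffold of the complex, was at 20 and 11 against 13 and 8 and EEF1E1, another complex protein, at 16 and 9 against 9 and 8. Of 17 mitochondrial synthetases 10 were tested, with a median of 0.02. Of the 10, 1 was called higher and 1 lower (4.33% and 3.70% of all genes tested). HARS2 rose from 24 and 25 to 42 and 43 (difference 0.77, SE 0.05, adjusted p 0.0423), and it shares exon bases with HARS on the opposite strand. IARS2 fell from 34 and 34 to 21 and 19 (difference -0.74, SE 0.07, adjusted p 0.0452). The cytosolic IARS was also lower in both APC shRNA libraries, without a call.

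**Figure D4:**
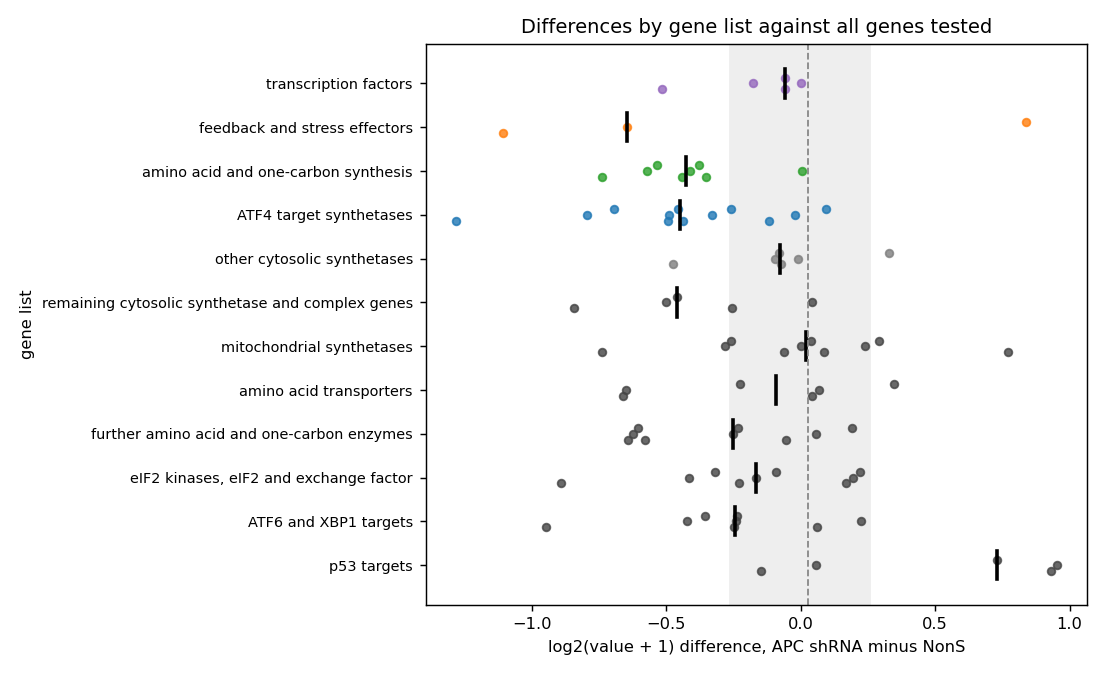
Difference of log2(value + 1), APC shRNA minus NonS, of each tested gene by list, with a black bar at the list median. The dashed line and grey band give the median (0.03) and quartiles (-0.26 to 0.26) of all 5376 genes tested. The bars of the effectors (-0.64, 3 genes) and the remaining cytosolic synthetase and complex genes (-0.46) lie left of the band. So do those of the ATF4 target synthetases (-0.45) and the synthesis genes (-0.43). The bar of the p53 targets (0.73, 5 of 14 genes) lies right of it.

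Of 13 targets of ATF6 and XBP1, the factors of the other arms of the endoplasmic reticulum stress response, 8 were tested and 0 called, with 1 higher and 3 lower at an unadjusted p under 0.05 (19.8% and 15.8% of all genes) and a median of -0.25. HSP90B1, a chaperone of the endoplasmic reticulum, was at 243 and 161 against 137 and 76 (-0.95, adjusted p 0.214). HERPUD1, a part of the degradation machinery there, was at 17 and 20 against 13 and 14, and SDF2L1, a cofactor of the chaperone HSPA5, at 16 and 14 against 12 and 11. None of these 3 had overlapping groups, and all were lower in APC shRNA libraries.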

How the data were processed

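RNA of HT-29 cells was sequenced as single reads after polyA selection with a stranded kit, 2 libraries per group, grouped by the sample titles. The authors trimmed and filtered the reads, mapped them with TopHat2 to human assembly 38 and counted them with htseq-count on GENCODE v29. The submitters' processing notes name bcl2fastq 2.19.0.316 and DESeq2 1.4.1 and give hg19 as the build. For every gene the deposited tables of the authors hold 1 whole number in each library, treated here as a score whose scale is not stated. Replicates of low genes varied 0.474 (NonS) and 0.345 (APC shRNA) times as much as Poisson counts would, and values times transcript length in kb summed to 980841 to 984873 in each library. Depth is therefore unknown and no count model was run. The authors' table of means, fold changes and adjusted p-values was not used, and 0 columns of per-sample values were left unread.

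Genes with a mean of at least 10 (5376) were compared as log2(value + 1) with limma 3.58.1 in R 4.3.3 (lmFit, eBayes with trend), Benjamini-Hochberg adjustment over all of them and an adjusted p under 0.05. The pseudocount of 1 understates the change of low genes. An exact permutation test of 2 against 2 cannot go below p = 0.333 and was not used. Tables were made with Python 3.11.15 and pandas 2.3.3. Symbols, positions, GC content and overlapping exons came from GENCODE v29. All 42 genes are named. In each further list up to 4 called genes are named, or the up to 3 with the largest difference where none was called. EIF2AK1, EIF2AK3, EIF2AK4, SLC1A5, SLC7A11, GFRAL, RET, PCSK6 and p53 targets other than BTG2 were named outside this rule, after their values were seen. The genes and lists were chosen with earlier results of these data known. Alternatives covered scaling, pseudocount, filter, moderation, threshold, GC content, a replicate block and each library left out.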

Additional observations from a re-analysis of the deposited data

How the results depend on the processing

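Calls among the 34 genes tested beside GDF15 lay close to the limit. Against 2 lower and 0 higher as reported, 5 were lower with upper-quartile scaling, with equal totals and with robust moderation (349, 369 and 352 of all genes, against 199). GC content correction gave 6 lower (486 of all genes) and a minimum mean of 8 gave 1 (140 of all genes). At an adjusted p under 0.1, 7 were lower (600 of all genes), and at 0.01, 0 were (0 of all genes). A total of at least 1 gave 1 higher gene, NUPR1, whose values do not vary within either group. Without each library in turn, limma called 0 to 0 genes lower, and 4 to 8 were lower at an unadjusted p under 0.05. The median difference of the 34 ranged from -0.47 to -0.27 over the alternatives that tested these genes and that of all genes from -0.01 to 0.05. The labels number the libraries I and II without saying that a number marks a shared day or batch, so they share a number only. Differences between replicates correlated across genes between the conditions (0.724), and a replicate block gave 7 genes lower (523 higher and 500 lower of all genes, against 233 and 199 as reported), with SHMT2 not among them. With GC content correction as well it gave 17 lower and 1 higher, PPP1R15A, where 1261 of all genes (23.5%) were lower and 1212 higher. Differences near 0 changed sign: PYCR1 to -0.00052 (median-of-ratios), -0.030 (upper quartile), -0.023 (equal totals) and -0.10 (GC correction, with or without the block), where KARS turned to 0.017 and RARS to 0.12. With a library left out they ranged from -0.15 to 0.16 for PYCR1, -0.11 to 0.089 for KARS, -0.16 to 0.0014 for RARS, -0.14 to 0.10 for MARS, -0.41 to 0.30 for CEBPB, -0.24 to 0.0043 for WARS and -0.21 to 0.018 for VARS. The cause was not tested. Of 560 comparisons of a gene with an alternative, 490 kept direction and side of the limit. Count-based tools were not run, since the values are scaled, and rounding limits genes with values under 10.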

Other observations

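GDF15 is also known as a target of p53, and 14 genes induced by p53 were read beside it. Of these, 5 passed the filter, with a median log2(value + 1) difference of 0.73 against 0.03 over all genes tested. Of the 5, 1 was called higher and 0 lower (4.33% and 3.70% of all genes tested). Over all 14, with no filter, 7 differences were positive, 6 negative and 1 was 0, and the median was 0.03. BTG2, an antiproliferative factor, rose from 16 and 16 in NonS to 30 and 34 in APC shRNA libraries (difference 0.95, SE 0.08, adjusted p 0.0441 with limma). BBC3 (PUMA), which promotes apoptosis, was at 13 and 22 against 25 and 44, and GADD45A, a gene of the DNA damage response, at 12 and 16 against 20 and 28, with adjusted p-values of 0.227 and 0.149. CDKN1A, the cell cycle inhibitor most often read as the p53 output, was under the filter and lay the other way, at 6 and 11 against 3 and 5. BAX, which was tested, was also lower without overlap, at 105 and 101 against 93 and 93. TNFRSF10B, also tested, overlapped, at 19 and 23 against 19 and 25. Under the filter, MDM2, FAS and PLK3 were lower without overlap, and SESN1 and TP53I3 higher. The list thus held genes of both directions, and what moved BTG2 was not tested.

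Genes of the route by which GDF15 signals were read as well. GFRAL and its co-receptor RET were listed at 0 in all 4 libraries. FURIN, a protease that cleaves GDF15 precursors, was at 20 and 30 with NonS shRNA and 15 and 21 after APC silencing, with overlapping groups and an adjusted p of 0.355. PCSK6, a related protease, was at 8 with NonS shRNA and 4 after APC silencing in both replicates, under the filter.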
